A study of Mus musculus with 15 samples.

Results

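The genes described here are 10 that encode structural proteins of the basement membrane: the collagen chains Col4a1, Col4a2, Col15a1 and Col18a1, the laminin chains Lama2, Lamb1, Lamb2 and Lamc1, the linker Nid1 and the proteoglycan Hspg2 (perlecan). They were taken by name, as every probe set (a group of short probes read out as 1 value) that the array annotation ties to exactly 1 of these symbols. This gave 16 of the 12422 probe sets on the array, for 10 of the 8251 genes with such a probe set: 5 for Col18a1, 2 each for Lamb1 and Lamc1, and 1 for each other gene. RNA came from hearts of mice in 4 groups. Knockout (CKO) mice, αMHC-Cre+/0; MAT1F/F, were sampled at 4 weeks of age (5 arrays) and at 2 weeks (4 arrays). Their control littermates, αMHC-Cre+/0; MAT1F/+, were sampled at 4 weeks (3 arrays) and at 2 weeks (3 arrays). All 4 groups therefore carried the Cre transgene and at least 1 floxed MAT1 allele, and the controls kept 1 wild-type allele. MAT1 (symbol Mnat1) joins cyclin H and the kinase CDK7 into 1 complex. The αMHC promoter drives Cre in cardiomyocytes, so endothelial cells, fibroblasts and other heart cells kept the gene. Separate mice for each array are not stated in the labels, so p-values measure the spread between these arrays, which may be technical.

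A basement membrane is a thin sheet of matrix that lies under endothelium and around each muscle cell. Laminins, trimers of an alpha, a beta and a gamma chain, polymerise on the cell surface, where they also bind integrins and dystroglycan. Type IV collagen forms a second, covalently cross-linked network, and nidogen and perlecan bridge both networks. Collagens XV and XVIII carry heparan or chondroitin sulfate and lie at the outer face of the sheet, and their C-terminal fragments (restin and endostatin) inhibit vessel growth. In heart and skeletal muscle the laminin alpha 2 chain joins the muscle fibre to its basement membrane through dystroglycan, and its loss in mice and humans causes muscular dystrophy.

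Values are the authors' deposited intensities on a linear scale, with a floor of 0.95 and array medians from 173.7 to 216.8. Differences are on the log2(intensity + 16) scale with standard errors, which understates the change of dim probe sets, and a probe set is called where limma's adjusted p over all 12422 is under 0.05. By their correlation over all probe sets the arrays fell into 2 array sets, of 6 and 9 arrays, which the labels do not mention. Set 1 took in 2 CKO arrays and 1 control array of each age; all others were in set 2. In every comparison the calls of the 16 probe sets are therefore counted from 2 fits, while values of single probe sets are given from 1 or both. One fit has the groups only, and the other also holds a term for the array set (named the block), which was planned with this split known. Neither fit holds a term for sex, which was inferred from Xist against Uty and was not balanced. In set 1 all arrays at 4 weeks were inferred female and all at 2 weeks male, so age and sex cannot be told apart there. In set 2 at 4 weeks, 2 of 3 CKO arrays and 0 of 2 control arrays were inferred female. Mnat1 had 2 probe sets, and neither was called lower in CKO hearts at either age in either fit. At 4 weeks probe set 161557_at was 140.7 to 314.3 in CKO hearts, against 85.96 to 243.8 in control hearts. It was not called with groups only (0.53 ± 0.47; limma, adjusted p = 0.726) and was called higher in CKO hearts with the block (0.45 ± 0.15; adjusted p = 0.0384), which runs against the label. Probe set 98979_at was 38.92 to 78.34 in CKO and 40.07 to 79.2 in control hearts at 4 weeks and was not called in either fit. At 2 weeks it was 23.67 to 52.03 in CKO and 41.4 to 86.25 in control hearts. That difference, in the direction of the label, was −0.47 ± 0.28 with groups only and −0.55 ± 0.22 with the block, neither called. At 2 weeks 161557_at differed by 0.16 ± 0.49 with groups only and −0.04 ± 0.16 with the block. The position of the probes against the floxed exons is not stated, so these values do not check the labels. Cardiomyocyte markers were bright in all groups, with 10 markers summing to between 61902 and 81948 on each array.

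Col4a1 and Col4a2 lie head to head on chromosome 8, and their promoters are printed because both genes are described as a pair below. RefSeq promoter windows (GRCm38.p6, 250 bases before to 50 after a start site, read along the gene's strand) were found for 9 of the 10 genes, in 10 windows. Lamc1 had no entry. The Col4a1 window is chr8:11312777-11313076 on the minus strand, and the Col4a2 window is chr8:11312555-11312854 on the plus strand. Capitals mark the 78 bases, chr8:11312777-11312854, that both windows hold on opposite strands. The annotated start sites lie 21 bases apart, at 11312826 for Col4a1 and 11312805 for Col4a2. Given their strands, both genes overlap at least between these sites, and each window runs into the other gene. In the gene annotation Col4a1 extends to 11312889, past the start site used for its window.
Col4a1: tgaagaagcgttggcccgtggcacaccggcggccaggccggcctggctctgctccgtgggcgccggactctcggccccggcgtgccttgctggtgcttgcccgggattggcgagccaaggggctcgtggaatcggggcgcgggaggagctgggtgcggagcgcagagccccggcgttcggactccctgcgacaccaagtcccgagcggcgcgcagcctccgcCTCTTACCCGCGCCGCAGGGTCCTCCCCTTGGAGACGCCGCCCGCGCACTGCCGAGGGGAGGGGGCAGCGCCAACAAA
Col4a2: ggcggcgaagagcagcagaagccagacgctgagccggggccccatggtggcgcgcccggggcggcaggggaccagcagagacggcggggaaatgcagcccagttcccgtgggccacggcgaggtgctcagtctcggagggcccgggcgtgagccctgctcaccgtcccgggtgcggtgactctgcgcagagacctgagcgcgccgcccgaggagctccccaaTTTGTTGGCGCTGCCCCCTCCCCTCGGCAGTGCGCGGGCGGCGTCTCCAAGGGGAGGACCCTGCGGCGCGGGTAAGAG

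The windows of the laminin beta genes are shown beside each other because of their calls at 4 weeks with the block. Lamb1 162263_f_at was called higher and Lamb2 lower. With groups only neither gene was called, and Lamb1 101948_at was called in neither fit. A link between the windows and these calls was not tested. The Lamb1 window is chr12:31265043-31265342 and the Lamb2 window is chr9:108479612-108479911, both on the plus strand. Capitals mark GC boxes (GGGCGG on either strand), of which the Lamb1 window held 2 and the Lamb2 window 0.
Lamb1: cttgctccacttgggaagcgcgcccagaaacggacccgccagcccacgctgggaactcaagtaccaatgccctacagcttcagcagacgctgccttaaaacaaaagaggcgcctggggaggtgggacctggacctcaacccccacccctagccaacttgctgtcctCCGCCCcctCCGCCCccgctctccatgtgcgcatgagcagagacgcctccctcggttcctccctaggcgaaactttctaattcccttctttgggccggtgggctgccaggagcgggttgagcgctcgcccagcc
Lamb2: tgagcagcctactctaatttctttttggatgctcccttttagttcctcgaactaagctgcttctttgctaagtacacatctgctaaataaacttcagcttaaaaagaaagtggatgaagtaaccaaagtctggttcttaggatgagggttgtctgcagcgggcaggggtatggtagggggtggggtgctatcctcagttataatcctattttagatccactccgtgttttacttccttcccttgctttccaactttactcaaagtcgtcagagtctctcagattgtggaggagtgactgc
Searched on both strands, the GC box was in 7 of the 10 windows, against 35.7% of all windows in the table. The 1 GC box of the Col4a1 window lies in the bases shared with Col4a2, so that site is counted in both windows. The CCAAT box (CCAAT) was in 5 of 10, against 37.4% of all windows, and the TATA box (TATAAA) in 0 of 10, against 13.6%. These are matches of letters only, and they say nothing of which factors bind.

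**Figure D1:**
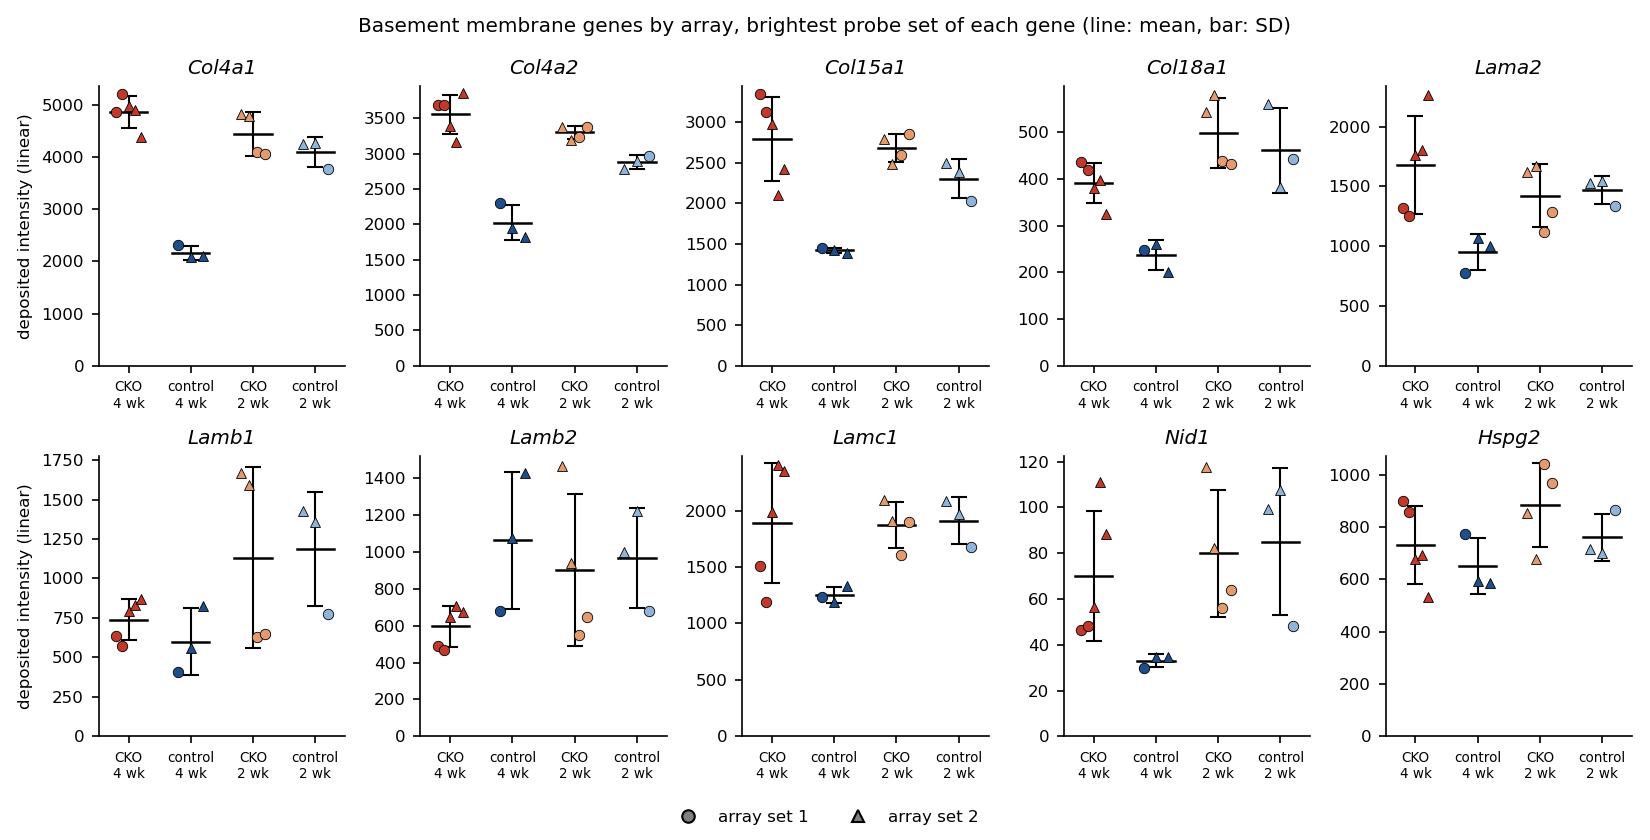
Deposited intensity (linear axis from 0) on each of the 15 arrays, for the brightest probe set of each of the 10 genes. Columns are CKO and control hearts at 4 weeks, then CKO and control hearts at 2 weeks; lines are group means, bars are SDs, circles are array set 1 and triangles array set 2. Col4a1 was between 4385 and 5199.6 in CKO hearts at 4 weeks and between 2077 and 2305 in control hearts of that age, while Lamb1, Lamb2 and Nid1 spread widely with the array set.

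In hearts of 4-week-old mice, 5 of the 16 probe sets were called higher in CKO than in control hearts and 0 lower, one each for Col4a1, Col4a2, Col15a1, Col18a1 and Lama2. Over all probe sets 3.86% were called higher and 2.42% lower. With the block, 9 were called higher, for 8 genes, and 1 lower (Lamb2), against a background of 14.5% higher and 7.7% lower. Every CKO array lay above every control array for 8 of the 16 probe sets, and for 0 below, where 8.15% of all probe sets lay wholly above and 4.71% wholly below. The median difference was 0.68 over the 16 probe sets and 0.07 over all probe sets. In whole hearts, a change in the number of cells that make a transcript cannot be told apart from a change in RNA per cell.

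The type IV collagen chains, which form the α1α1α2 network found in most basement membranes, had the smallest adjusted p-values of the 10 genes. Col4a1 had 4851, 5199.6, 4976, 4892 and 4385 in CKO hearts at 4 weeks, against 2305, 2077 and 2096 in control hearts. The groups did not overlap, and the lowest CKO array stood far above the highest control array. The difference was 1.16 ± 0.09, a fold of 2.24 (limma, adjusted p = 1.02e-05). It was 1.12 within array set 1 and 1.18 within set 2.

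Col4a2, its partner chain, had 3695, 3695, 3395, 3163 and 3855 in CKO hearts at 4 weeks, against 2308, 1947 and 1825 in control hearts. The groups again did not overlap. The difference was 0.81 ± 0.10, a fold of 1.76 (limma, adjusted p = 0.000182), with 0.68 within set 1 and 0.87 within set 2. Both chains were called in every fit that left out 1 of the 15 arrays.

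Col15a1 encodes the core chain of collagen XV, which in mice is needed for normal muscle and capillary integrity. It had 3346, 3129.97, 2979, 2105 and 2417 in CKO hearts at 4 weeks, against 1454, 1425 and 1386 in control hearts. The control arrays lay close together, the CKO arrays spread more widely, and the groups did not overlap. The difference was 0.95 ± 0.14, a fold of 1.93 (limma, adjusted p = 0.000964), and the call held without any 1 array.

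Col18a1 encodes collagen XVIII, the source of endostatin, and its 5 probe sets did not all move together. The brightest, 99638_at, had 436.1, 418, 380.8, 397.1 and 325.5 in CKO hearts at 4 weeks, against 248.6, 261.4 and 201.4 in control hearts. The groups did not overlap, with a difference of 0.69 ± 0.17 (limma, adjusted p = 0.0236). The call was lost without control array 2, without control array 3 or without CKO array 1 of that age (adjusted p up to 0.135), and with median scaling (0.61, adjusted p = 0.0836). Probe set 101881_g_at had 155.7, 125.1, 232.3, 289.2 and 183.2 in CKO hearts, against 78.04, 61.87 and 66.21 in control hearts. Its groups also did not overlap, and its difference of 1.28 ± 0.55 was not called (adjusted p = 0.248), but was called with the block at 1.36 ± 0.36 (adjusted p = 0.0122). That call was lost without control array 2 or control array 3 of that age (adjusted p up to 0.0824). With inferred sex added to the block, 99638_at was 0.55 and 101881_g_at 0.98, against 0.69 and 1.36 with the block alone. Both were still called.

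The other 3 Col18a1 probe sets were dimmer and were not called in either fit. Probe set 101882_s_at averaged 124.2 ± 48.2 in CKO hearts at 4 weeks and 62.5 ± 13.3 in control hearts (SD, n = 5 and 3), without overlap. Probe set 162483_f_at averaged 38.3 ± 9.28 in CKO and 26.7 ± 3.71 in control hearts, and 101880_at averaged 55.2 ± 10.1 in CKO and 62.0 ± 16.4 in control hearts, both with overlap. The suffixes _g, _s and _f mark probe sets whose probes may match more than 1 transcript, so these are uncertain as measures of Col18a1. The same holds for Lamb1 162263_f_at and Lamc1 161706_f_at.

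Lama2 encodes the laminin alpha 2 chain of the muscle basement membrane. It had 1322, 1250.5, 1765, 1802 and 2265 in CKO hearts at 4 weeks, against 780.1, 1065 and 1005 in control hearts. No control array reached the lowest CKO array, and in both groups the arrays of set 1 were the lowest. The difference was 0.79 ± 0.20 (limma, adjusted p = 0.0264) with groups only and 0.82 ± 0.10 (adjusted p = 1.29e-05) with the block. The first of these calls was lost without any 1 of 6 arrays, namely the 3 control arrays and CKO arrays 3, 4 and 5 of that age (adjusted p up to 0.104). It was also lost after scaling each array to a common median (0.71, adjusted p = 0.2). The call with the block was lost on leaving out no single array.

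Lamb1 encodes the beta 1 chain of several laminins, and its 2 probe sets differed between the array sets, by −1.40 (162263_f_at) and −0.77 (101948_at) for set 1 minus set 2. Probe set 162263_f_at had 308.4 and 256.96 in the CKO hearts of set 1 at 4 weeks, against 169.8 in the control heart of that set. In set 2 it had 707.9, 670.3 and 636.1 in CKO hearts, against 376.5 and 391.5 in control hearts. CKO lay above control within each set, while the groups overlapped across sets. With groups only the difference was 0.67 ± 0.56 (limma, adjusted p = 0.705), and with the block it was 0.76 ± 0.15 (adjusted p = 0.00142). The other probe set, 101948_at, was not called in either fit, with 0.33 ± 0.35 and 0.39 ± 0.16 (adjusted p = 0.0953 with the block).

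Lamb2 encodes the beta 2 chain, which replaces beta 1 in laminins of the neuromuscular junction, kidney glomerulus and some vessels, and was the only one of the 10 genes called lower. In set 1 it had 488.1 and 470.4 in CKO hearts at 4 weeks, against 682.8 in the control heart. In set 2 it had 645.5, 707.5 and 673.5 in CKO hearts, against 1077 and 1429 in control hearts. Every CKO array lay below every control array of its own set, but the groups overlapped across sets. The difference was −0.77 ± 0.31 with groups only (limma, adjusted p = 0.202), which was not called, and −0.72 ± 0.15 with the block (adjusted p = 0.00174).

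Lamc1 encodes the gamma 1 chain that most laminins share. Probe set 161706_f_at had 1510.2, 1187, 1987, 2407 and 2348 in CKO hearts at 4 weeks, against 1236, 1191 and 1329 in control hearts. The 3 CKO arrays of set 2 lay above all controls, and of the 2 CKO arrays of set 1 one lay below all of them. The difference was 0.54 ± 0.20 (limma, adjusted p = 0.156), and 0.56 ± 0.13 with the block (adjusted p = 0.00544), but it was 0.11 within set 1 and 0.82 within set 2. The dim probe set 102404_at, at 16.58 to 63.12 over all arrays, was not called in either fit (0.15 ± 0.29 with groups only).

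Nid1, the linker between laminin and type IV collagen, was read by 1 dim probe set. It had 46.3, 48.33, 56.57, 110.9 and 88.49 in CKO hearts at 4 weeks, against 29.71, 34.75 and 34.74 in control hearts, without overlap. The difference of 0.75 ± 0.29 was not called with groups only (limma, adjusted p = 0.178) and was called with the block at 0.79 ± 0.18 (adjusted p = 0.00497). Hspg2, the heparan sulfate proteoglycan perlecan, had 899.8, 859.8, 678.7, 693.6 and 531.7 in CKO hearts, against 773.7, 594.3 and 586.8 in control hearts. Its groups overlapped, and its difference was 0.15 ± 0.19 (limma, adjusted p = 0.851).

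**Figure D2:**
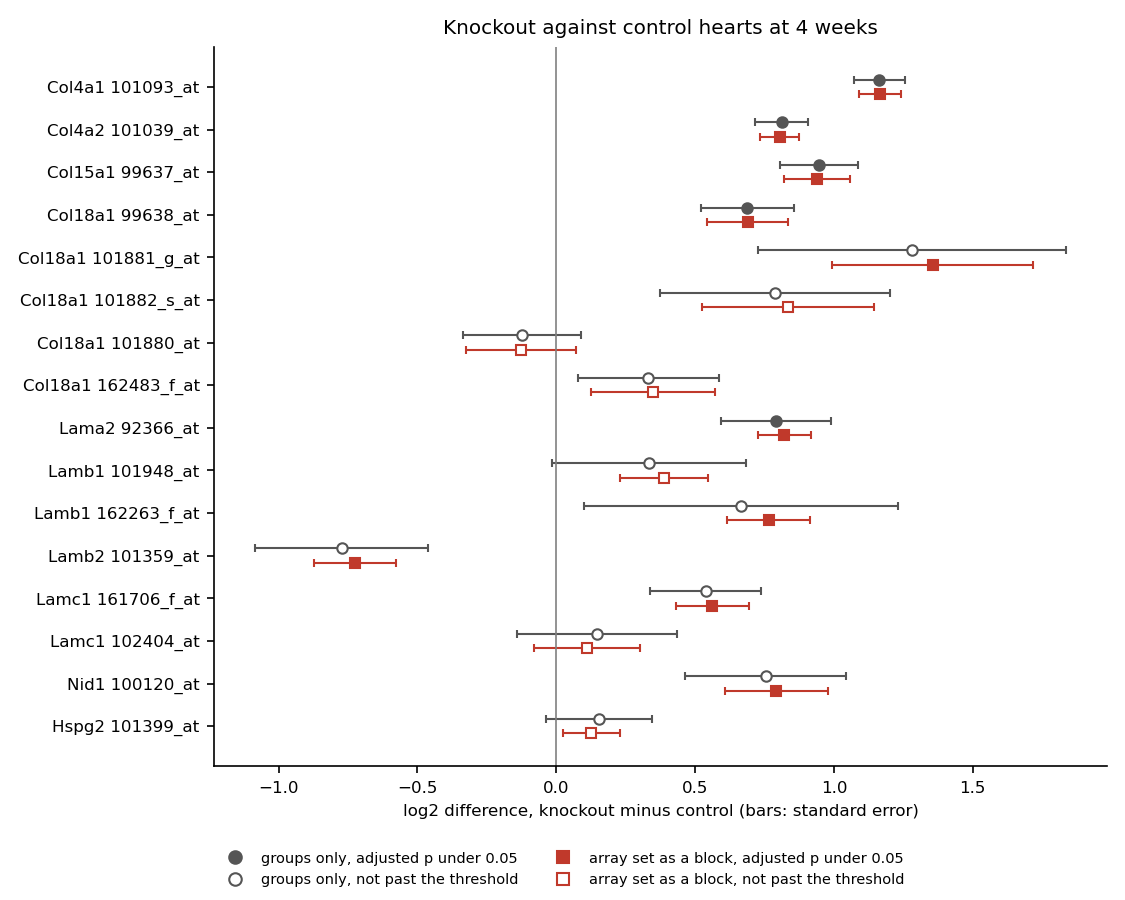
Log2 difference, CKO minus control hearts at 4 weeks, for the 16 probe sets, with standard errors. Circles are the fit with groups only and squares the fit with the array set as a block; filled symbols have an adjusted p under 0.05. Col4a1 stands at 1.16 in the first fit and 1.17 in the second, and Lamb2 at −0.77 and −0.72.

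At 2 weeks of age the 10 genes were called in 0 of 16 probe sets. This held with groups only, where 0.00805% of all probe sets were called, and with the block, where 0.0564% were; at an unadjusted limma p under 0.05 there were 0 and 1. Col4a1 averaged 4437 ± 421 in CKO hearts at 2 weeks and 4092 ± 283 in control hearts (SD, n = 4 and 3), a difference of 0.11 ± 0.10. Col4a2 had 3385, 3198, 3243 and 3384 in CKO hearts, against 2780.1, 2905 and 2973 in control hearts. It was the 1 probe set of the 16 whose CKO arrays all lay above the control arrays, as did 1.52% of all probe sets, and its difference was 0.19 ± 0.10 (unadjusted p = 0.0729). Lama2 averaged 1424 ± 265 in CKO and 1471 ± 118 in control hearts, and Lamb2 902.4 ± 413.1 in CKO and 968.4 ± 273.8 in control hearts, with overlapping arrays in both cases.

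Whether the genotype difference at 4 weeks departed from that at 2 weeks was tested directly, as the difference between both differences. Col4a1 was the 1 probe set called with groups only, at 1.05 ± 0.13 (limma, adjusted p = 0.00435), where 0.274% of all probe sets were called in that direction. After scaling each array to a common median its value was 1.02 and was not called (adjusted p = 0.0794), nor was it within set 1 (1.00, adjusted p = 0.0768), which has 1 control array at each age. With the block, 4 were called, against 3.28% of all probe sets. They were Col4a1 at 1.05 ± 0.11, Col4a2 at 0.63 ± 0.10, Lama2 at 0.81 ± 0.14 and Col15a1 at 0.74 ± 0.17 (adjusted p = 0.0185 for the last). The Col15a1 call was lost without control array 3 at 4 weeks or control array 1 at 2 weeks (adjusted p up to 0.0681). For Lamb2 the value was −0.68 ± 0.21 with the block, which was not called (adjusted p = 0.0745).

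In control hearts 14 of the 16 probe sets had negative differences between 4 and 2 weeks, with a median of −0.75 against −0.03 over all probe sets. Col4a1 had 2305, 2077 and 2096 at 4 weeks, against 4246, 4264 and 3764 at 2 weeks, without overlap. It fell by 0.92 on the log2 scale, with a standard error of 0.10 (limma, adjusted p = 0.00144), and was the only one of the 16 called with groups only, where 0.0564% of all probe sets were called lower. All arrays at 4 weeks lay below all at 2 weeks for 10 of the 16 probe sets, against 4.21% of all probe sets. With the block, 10 probe sets of 8 genes were called lower, against 1.39% of all probe sets. Within set 1, with 1 control array at each age, Col4a1 differed by −0.70, and within set 2 by −1.02.

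Among the genes called with the block in control hearts, Col18a1 99638_at fell by 0.91 (standard error 0.16), Col15a1 by 0.68 (0.13), Lama2 by 0.63 (0.11) and Col4a2 by 0.51 (0.08). The laminin beta 1 probe sets fell by 0.97 (101948_at) and 1.30 (162263_f_at), Lamc1 161706_f_at by 0.60 and Nid1 by 0.99. Col18a1 101881_g_at fell by 1.86. The calls of Lamc1, Nid1, Col18a1 101881_g_at and Col15a1 were lost on leaving out single arrays, for 7, 4, 3 and 1 of the 15 arrays in turn (limma, adjusted p up to 0.188 for Lamc1). Lamb2 differed from these in value: it averaged 1063 ± 373 at 4 weeks and 968.4 ± 273.8 at 2 weeks in control hearts (SD, n = 3 each), a difference of 0.11 ± 0.16 with the block (limma, adjusted p = 0.819). For Hspg2 the difference was −0.22 ± 0.11 with the block (adjusted p = 0.373).

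In CKO hearts 0 of the 16 probe sets were called between 4 and 2 weeks with groups only, where 3.33% of all probe sets were called in either direction and 1 of the 16 had an unadjusted limma p under 0.05. Col4a1 averaged 4861 ± 298 at 4 weeks and 4437 ± 421 at 2 weeks (SD, n = 5 and 4). Col4a2 averaged 3561 ± 278 at 4 weeks and 3302 ± 96.4 at 2 weeks, and Col15a1 2796 ± 517 at 4 weeks and 2678 ± 172 at 2 weeks. The arrays of both ages overlapped for all 3. With groups only these 3 and Lama2 (0.22 ± 0.18) had positive differences, and every other of the 16 probe sets had a negative difference. Col18a1 99638_at, at −0.33 ± 0.15, was the probe set with an unadjusted limma p under 0.05, and Nid1 stood at −0.17 ± 0.27. The median over all probe sets was −0.006. With the block 3 were called lower, against 5.74% of all probe sets, namely Lamb2 at −0.57 ± 0.13 and Lamb1 at −0.56 ± 0.15 (101948_at) and −0.55 ± 0.14 (162263_f_at). Both Lamb1 calls were lost without CKO array 1 or CKO array 2 of the 2-week group (limma, adjusted p up to 0.0814). The CKO-minus-control comparison at 4 weeks, the change with age in control hearts and the difference between both genotype differences share the same 3 control arrays at 4 weeks, so they are not independent of each other.

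**Figure D3:**
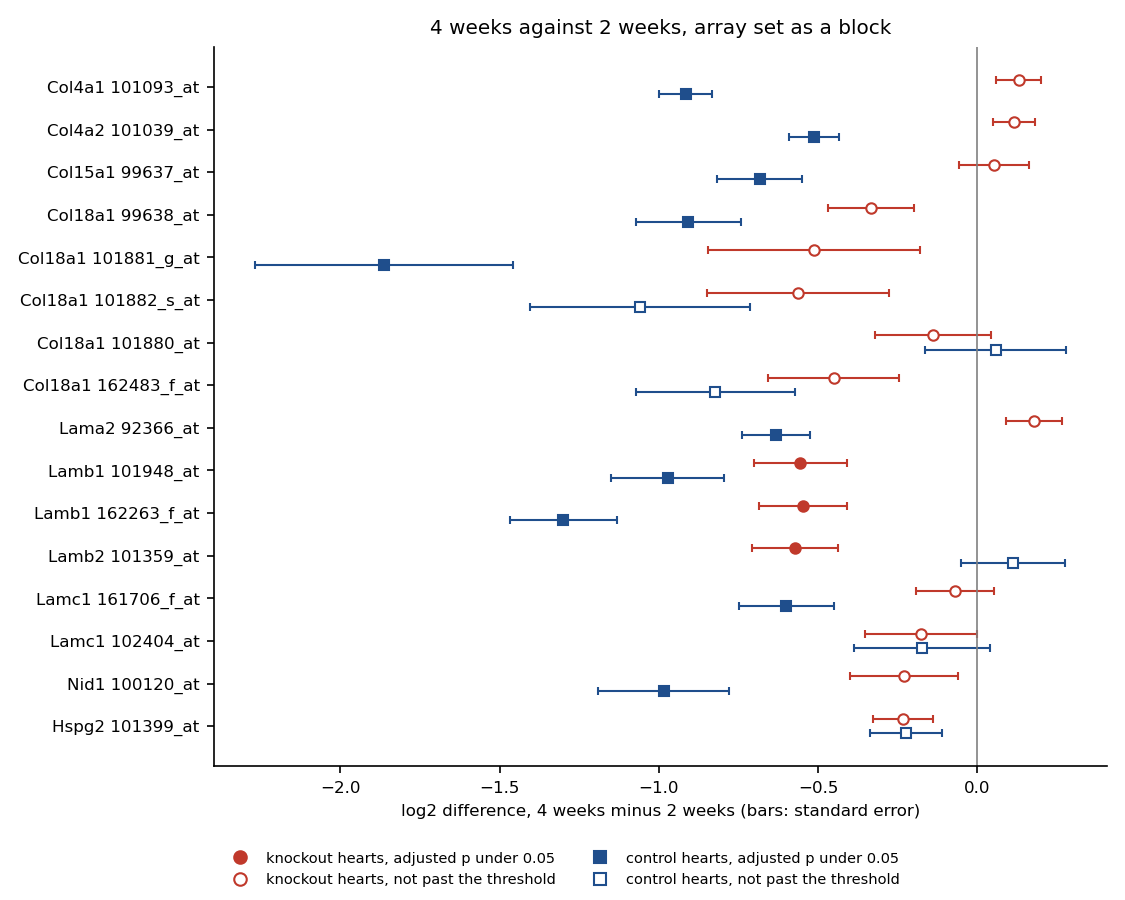
Log2 difference, 4 minus 2 weeks, for the 16 probe sets, with standard errors from the fit with the block. Circles are CKO hearts and squares control hearts; filled symbols have an adjusted p under 0.05. Col4a1 stands at 0.13 in CKO hearts and −0.92 in control hearts, and Lamb2 at −0.57 in CKO hearts and 0.11 in control hearts.

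Other genes of the basement membrane were counted in 6 lists of 100 genes, of which 68 had a probe set, each gene by its brightest one. Their counts at 4 weeks are to be read against the shares over all probe sets, 3.86% higher and 2.42% lower with groups only and 14.5% higher and 7.7% lower with the block. Of 6 further basement membrane collagens, 1 was called higher in CKO hearts at 4 weeks and 0 lower. It was Col8a1, a network collagen of vessel walls and heart valves, which averaged 2645 in CKO and 369.1 in control hearts at 4 weeks, a difference of 2.86 ± 0.43 (limma, adjusted p = 0.000973). At 2 weeks it averaged 409 in CKO and 251.6 in control hearts, and it was higher at 4 than at 2 weeks in CKO hearts by 2.74 ± 0.39. With the block 2 of the 6 were called higher.

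Of 15 other laminin chains and basement membrane proteins, 4 were called higher and 1 lower in CKO hearts at 4 weeks. With the block 6 were called higher and 1 lower. Fbln2, an elastic-fibre and basement membrane linker, averaged 1823 in CKO and 659.5 in control hearts (1.43 ± 0.20), and Sparc, a collagen-binding matricellular protein, 3518 in CKO and 1785 in control hearts (0.97 ± 0.21). The gene called lower was Lama5, the laminin alpha 5 chain of mature vessels. It averaged 188.3 in CKO and 407.2 in control hearts (−1.05 ± 0.22, limma adjusted p = 0.00909). At 2 weeks Lama5 averaged 199 in CKO and 228.9 in control hearts. Sparc averaged 3111 in CKO and 3054 in control hearts at that age, and Fbln2 795.3 in CKO and 838.9 in control hearts. The list's median difference at 4 weeks was 0.27. Among 16 cell receptors of basement membranes, 1 was called higher in CKO hearts at 4 weeks and 0 lower. It was Sgcd, delta-sarcoglycan of the dystrophin complex, at 73.1 in CKO and 41.9 in control hearts (0.62 ± 0.17; adjusted p = 0.0465). With the block 3 receptors were called higher and 1 lower, shares near those over all probe sets (14.5% and 7.7%).

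Of 9 collagen folding and cross-linking enzymes 1 was called higher in CKO hearts at 4 weeks. It was Plod3, a lysyl hydroxylase that also adds sugars to collagen IV, at 485.8 in CKO and 299.98 in control hearts (0.66 ± 0.16, limma adjusted p = 0.022). With the block 6 of the 9 were called higher, and the list's median was 0.43 with groups only. Of 8 heparan sulfate synthesis genes 0 were called with groups only (1 at an unadjusted limma p under 0.05) and 2 were called higher with the block. Among 14 proteases and inhibitors 4 were called higher in CKO hearts and 0 lower with groups only, and 5 were called higher with the block. The 3 of smallest p were Timp2 (1.08 ± 0.14), Timp1 (1.76 ± 0.29) and Ctsl (0.86 ± 0.15), inhibitors of matrix metalloproteinases for the first pair and a lysosomal protease for the last. At 2 weeks 0 of the 68 genes of these lists were called in either fit, and at an unadjusted limma p under 0.05 there were 0 with groups only and 2 with the block. Col8a1 differed there by 0.61 ± 0.45 with groups only and by 0.79 ± 0.17 with the block (adjusted p = 0.2).

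Markers of heart cell types were counted in the same way. Of 12 fibroblast markers, 11 were called higher in CKO hearts at 4 weeks and 12 with the block, with a median difference of 1.13. Their summed intensity ran from 26712 to 35714 in CKO hearts and from 12381 to 14239 in control hearts at 4 weeks, and from 17960 to 30116 in CKO and 17359 to 25149 in control hearts at 2 weeks. In control hearts the fibroblast markers had a median difference of −0.69 between 4 and 2 weeks, with 1 called lower with groups only and 7 with the block. In the same comparison the endothelial markers had a median of −0.31, with 0 called with groups only (3 of 13 at an unadjusted limma p under 0.05, all negative) and 2 called lower with the block. The 3 epicardial markers had a median of −0.49, with 0 called in either fit and 0 at an unadjusted p under 0.05 with groups only. Of 10 cardiomyocyte markers 5 were called lower at 4 weeks, and 6 with the block, with summed intensity from 61902 to 67592 in CKO and from 75706 to 81948 in control hearts. Fbln2 is counted both among the fibroblast markers and among the basement membrane proteins. The fibroblast list holds other matrix genes, with Col1a1 at 1.68, Col1a2 at 2.09, Col3a1 at 1.25, Fn1 at 1.77 and Postn at 3.03 at 4 weeks. Pdgfra (0.89), Thy1 (0.75), Tcf21 (0.74) and Ddr2 (0.60, not called with groups only) differed less. So did the matrix genes Lum (1.01) and Dcn (0.51).

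Endothelial markers, of cells that lie on basement membranes, had 1 of 13 called higher and 0 lower at 4 weeks, and 2 higher and 1 lower with the block. They summed to between 8350.4 and 11420 in CKO and between 7500 and 9893 in control hearts, which overlap. Their median difference of 0.04 turned to −0.06 with quantile normalization. Pericyte and smooth muscle markers had 2 of 11 called higher and 1 lower, and 3 higher and 1 lower with the block. Macrophage, lymphocyte, Schwann cell and epicardial lists had 0 of 10, 9, 4 and 3 called with groups only (0, 0, 1 and 0 at an unadjusted limma p under 0.05), and 0, 1, 1 and 0 called higher with the block. No marker of any list lay at the floor on all arrays of a group. The part of these cell types in the differences of the 10 genes was not tested.

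**Figure D4:**
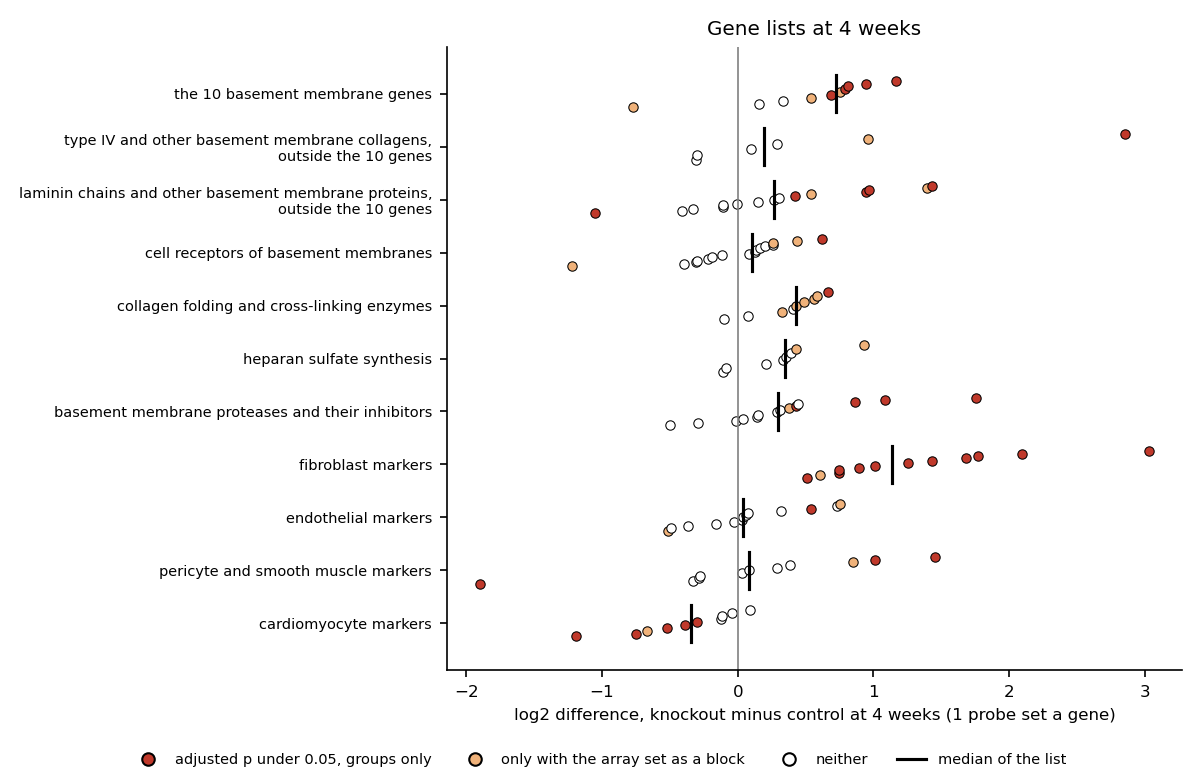
Log2 difference, CKO minus control hearts at 4 weeks with groups only, for each gene of the named lists (1 probe set a gene); vertical bars are list medians. Dark points have an adjusted p under 0.05 with groups only, light points only in the fit with the block, and open points in neither. The fibroblast markers, with a median of 1.13, all lie right of 0, and the endothelial markers, with a median of 0.04 (−0.06 with quantile normalization), lie on both sides.

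The genes most like Col4a1 in their pattern over the 15 arrays, by Pearson r after each array set's mean was subtracted, were Sparc (r = 0.99), Col1a1 (0.98), Col3a1 (0.98), Slc44a1 (0.98) and Lum (0.98). Those most like Lama2 were Rsu1 (0.93), Sh3bgr (0.93), Dbi (0.93), Col6a1 (0.92) and Dbndd2 (0.92). Among the 10 genes themselves, Col4a1 correlated at 0.95 with Col4a2, 0.93 with Col15a1 and −0.52 with Lamb2. These values describe the 15 arrays only, which share the 4 groups and the labelling.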

How the data were processed

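RNA from whole mouse hearts was hybridised to 15 one-colour arrays, after Trizol and column extraction and biotin labelling, per the labels. The deposited values are linear intensities, 1 for each probe set on an array. How the authors computed and scaled them was not stated. Each column matched 1 sample, and 0 columns belonged to no sample. In the array annotation 10833 probe sets had 1 symbol, 396 had more and 1193 had none. Of the first, 10817 had a gene ID in the GRCm38.p6 gene table, through which symbols were updated.

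Intensities were used as log2(intensity + 16) with no further normalization. All 12422 probe sets were fitted with limma 3.58.1 in R 4.3.3 (lmFit, eBayes with an intensity trend, two-sided), with 1 coefficient per group over all 15 arrays and Benjamini-Hochberg adjustment over all probe sets. All adjusted p-values are limma's. The same fit was tested on simulated data. Tables were made with Python 3.11.15, pandas 2.3.3 and scipy 1.17.1. The number of arrays limits the precision. A total of 5 comparisons were made. Alternatives were quantile or median scaling, pseudocounts of 1 and 64, 1 probe set a gene without the dimmest 40% of genes, the array set as a block (also with quantile normalization or with sex inferred from Xist against Uty), fits within each array set, a replicate block, array weights, no trend, and each array left out. The block with each array left out was added after seeing the data.

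Of the 10 genes every probe set is reported. In each list at most the 3 called genes of smallest p were named, and the 5 genes most like Col4a1 and Lama2. Endothelial, pericyte, fibroblast, cardiomyocyte, macrophage, lymphocyte, Schwann cell and epicardial markers formed 8 lists. The 10 genes, lists and alternatives were chosen with earlier results of these data known. Sample numbers shared between CKO and control arrays were not taken to pair them. Correlations of deviations from group means could not decide this, since the array set was not removed from them.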

Additional observations from a re-analysis of the deposited data

Results flagged for a closer look

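In Lamc1 102404_at, a dim probe set, the lowest of the 4 CKO arrays at 2 weeks was replicate 2 at 27.02, far from the other three at 53.33, 59.96 and 55.17. A gap test of the extreme array was run on 32 groups of 4 or 5 arrays, and chance marks about 1 in 20 groups.

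For Col4a1 the difference between CKO and control hearts was larger at 4 than at 2 weeks, with a difference between both differences of 1.05 ± 0.13 by the interaction contrast in limma (adjusted p = 0.00435), positive within both array sets (1.00 in set 1 and 1.01 in set 2).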

How the results depend on the processing

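No called value of the 16 probe sets changed sign under any alternative. At 4 weeks, CKO against control, the 5 called probe sets became 3 with median scaling, 10 with the array set block (also with quantile normalization or inferred sex), 10 within set 2 and 9 with array weights, and 3 to 6 on leaving out 1 array. They were 3 without control array 2 or 3 of that age. Median scaling lost Col18a1 99638_at (adjusted p = 0.0836) and Lama2 (0.2). For the difference between ages the count of 1 became 0 with median scaling, 2 with 1 probe set a gene, 4 with the block or with inferred sex added, 6 with quantile normalization added, 0 within set 1, 4 within set 2, 3 with array weights, and 1 to 2 without single arrays (2 without control array 1 at 4 weeks). For 4 against 2 weeks in control hearts the count of 1 became 2 with quantile normalization, 3 with 1 probe set a gene, 10 with each block, within set 2 and with array weights, 0 within set 1, and 1 to 2 without single arrays (2 without control array 1 or CKO array 4 at 4 weeks). In CKO hearts the count of 0 became 3 with the block and with quantile normalization added, 5 with inferred sex added and 4 within set 2, and stayed 0 without single arrays. At 2 weeks the count was 0 in every alternative. With the array set block, leaving out single arrays gave 9 to 11, 3 to 6, 6 to 11 and 1 to 3 in these 4 comparisons; the lowest counts were 6 without control array 1 and 1 without CKO array 1 or 2, all of the 2-week groups. Over all probe sets at 4 weeks, 479 were higher and 300 lower, against 365 and 410 with quantile normalization and 287 and 300 with median scaling. Calls in either direction over all 12422 probe sets moved too. At 4 weeks their count of 779 became 2760 with the block, 2015 within set 2 and 2063 with array weights. It was 342 without control array 2 of that age and 403 without control array 3. The block took this count from 66 to 683 for the difference between ages. In control hearts it went from 42 to 369 and in CKO hearts from 414 to 1771.

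The labels give groups the same sample numbers. Same-numbered CKO and control arrays had correlations of deviations of 0.79, −0.52 and 0.47 at 4 weeks and 0.66, 0.59 and 0.85 at 2 weeks. The pair at −0.52 came from different array sets, and the other 5 pairs each from the same set. The array set was not removed from these deviations, so the correlations cannot show whether the numbers pair arrays. The labels give the numbers no shared litter, batch or day, so the numbers were not taken to pair arrays. With the replicate block 4 probe sets were called at 4 weeks, without Lama2 (adjusted p = 0.185), and the counts of the other comparisons were 0, 1, 1 and 0.

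Array set 1 has 1 control array at each age, the array sets and sexes were inferred from the values, and Nid1, Lamc1 102404_at and 3 Col18a1 probe sets lie among the dimmer probe sets, where signal over background limits what can be seen.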
